A study of Mus musculus with 4 samples.

Results

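The kinesin and tubulin genes of the mouse were followed in testis RNA from a busulfan model of oligozoospermia (few sperm), with and without Cus-1. Members were all symbols of the expression table that begin with Kif, Kifc, Tuba, Tubb, Tubg, Tubd or Tube followed by a number, with pseudogene symbols left out. This gave 62 of 44509 symbols, 43 with kinesin names and 19 tubulins. Kif16bos is one of the 43 by its name, but it is an antisense transcript of Kif16b and no motor. The rule itself used symbols only, but members and role groups were chosen with earlier results of these data known. The role of each member was assigned from its known function: 14 spindle kinesins, 12 members of the manchette, cilium and sperm tail, 19 somatic transport kinesins, 11 general tubulin isotypes, and 5 members of microtubule nucleation and the centriole.

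All 4 libraries came from testis of mice given busulfan, an alkylating agent toxic to dividing germ cells. The 2 libraries of the busulfan group had the model alone, and the 2 libraries called Cus-1 below came from such mice treated with Cus-1, a resin glycoside of a cuscutae extract. There was no group without busulfan, so no level here can be set beside an untreated testis. The sources used here do not give strain, age, dose, time or batch. Nor do they say whether the libraries of a group came from separate animals or from a pool (the protocol weighs out testis per group), so p-values measure only the spread between these libraries, which may be technical. The labels' titles begin with BPA for the busulfan libraries and with CUS2 for the others, and neither is explained, so the groups rest on the source label alone.

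Kinesins are motor proteins that use ATP to move along microtubules or to take them apart, and microtubules are polymers of alpha- and beta-tubulin started from rings of gamma-tubulin. Spermatogenesis uses them in turn as the spindles of mitosis and meiosis, as the manchette, a skirt of microtubules that shapes the spermatid head and carries cargo to the growing tail, and as the axoneme of the tail. Sertoli cells, the somatic nurse cells of the tubule, hold their own dense microtubule arrays, along which they support and move germ cells.

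The DNA before the start sites is shown for 8 members on which the values below turn. Sequences are from RefSeq windows of GRCm38.p6, the same assembly as the mm10 named by the submitters' processing notes. Of the members, 48 had a window, and 44 had one whose start lay within 250 bases of the GENCODE start. Capitals mark matches to 4 letter strings searched on both strands: the CCAAT box (CCAAT), the cell-cycle homology region or CHR (TTTGAA), the cAMP response element or CRE (TGACGTCA) and the half-site of the X-box (GTTGCC). None of the strings contains another. The most abundant alpha-tubulin pair and the most abundant beta-tubulin come first, at chr6:125286082-125286201 (minus strand), chr6:145615862-145615891 (plus strand) and chr2:25224703-25224822 (minus strand). The 30 bases of Tuba3b lie in an exon of its GENCODE model, which starts further upstream than RefSeq.
Tuba3a: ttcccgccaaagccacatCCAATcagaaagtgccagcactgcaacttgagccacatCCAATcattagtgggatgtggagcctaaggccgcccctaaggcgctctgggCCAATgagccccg
Tuba3b: ccaaatttacatCCAATcagaaagtaccac
Tubb4b: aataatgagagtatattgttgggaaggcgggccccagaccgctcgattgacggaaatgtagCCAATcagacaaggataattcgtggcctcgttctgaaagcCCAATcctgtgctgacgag
Tuba3a held CCAAT with its first base 102, 64 and 13 bases before the start, and Tuba3b held it at 89. Tubb4b held it at 59 and 19. Over 107 aligned bases, the 120-base stretches before the starts of Tuba3a and Tuba3b were 79.4% identical. Next are Kif17, the kinesin with the highest ratio between the Cus-1 libraries, and the spindle kinesins Kif23 and Kif18b, at chr4:138262131-138262231 (plus strand), chr9:61946800-61946919 (minus strand) and chr11:102925125-102925244 (minus strand).
Kif17: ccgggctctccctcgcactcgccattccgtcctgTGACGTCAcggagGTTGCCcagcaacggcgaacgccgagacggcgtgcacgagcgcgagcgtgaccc
Kif23: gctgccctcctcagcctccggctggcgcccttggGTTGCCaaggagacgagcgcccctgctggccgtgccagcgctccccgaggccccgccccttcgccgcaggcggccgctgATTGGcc
Kif18b: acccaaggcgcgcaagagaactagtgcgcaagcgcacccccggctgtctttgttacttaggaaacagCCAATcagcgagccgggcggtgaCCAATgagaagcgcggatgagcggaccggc
The stretch of Kif17 held a CRE at 86 and the X-box half-site at 73, and that of Kif23 held the X-box half-site at 86 and CCAAT, read on the other strand as ATTGG, at 7. Last are 2 members that were lower in both Cus-1 libraries, Tubb5 and Kif21a, at chr17:35838307-35838421 (minus strand) and chr15:91049952-91050071 (minus strand).
Tubb5: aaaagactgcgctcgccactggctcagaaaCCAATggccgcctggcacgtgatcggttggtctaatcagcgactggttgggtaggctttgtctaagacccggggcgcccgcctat
Kif21a: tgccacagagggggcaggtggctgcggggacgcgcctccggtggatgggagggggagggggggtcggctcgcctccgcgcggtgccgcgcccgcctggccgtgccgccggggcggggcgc
Tubb5 held a CCAAT at 90, and Kif21a held none of the 4 strings in this stretch.

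Across the 250 bases before the start, CCAAT stood in 22 of 44 members, against 33.8% of 32851 windows of all genes. By role it stood in 8 of 11 spindle kinesins, 6 of 9 manchette and tail members, 4 of 9 general tubulins and 2 of 11 somatic transport kinesins. The CHR stood in 7 of 44 members, near the 16% of all windows. These were the spindle kinesins Kif11, Kif14, Kif15 and Kif22, and Tuba3b, Tubb4b and Kif26b. The X-box half-site stood in 10 of 44 members, against 10.4% of all windows. These were the manchette and tail members Kif17, Kif3a, Kif9 and Tuba8, and, from other roles, Kif18a, Kif23, Kif16b, Kif3c, Tuba1c and Kif24. A CRE stood in Kif17, Kif5c and Tubb2a, against 1.55% of all windows. These counts describe letters in a window and say nothing of a factor's binding.

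In both Cus-1 libraries 11 of 14 spindle kinesins and all 11 tested manchette, cilium and tail members stood above both busulfan libraries, while the abundant general tubulins and several transport kinesins stood lower on the scale as deposited, a direction that turned under centring on Sertoli markers. Values are FPKM, fragments per kilobase of transcript and per 1000000 mapped fragments, and fold changes are Cus-1 minus busulfan on log2(FPKM + 1), given with the standard error of limma. The test took genes that reached 1 FPKM in 2 or more libraries, 19837 in all and 54 of the members. The 8 members below this were Kif16bos, Kif19b, Kif26b, Kif28, Tubb1, Tubb2b, Tubb4a and Tubg2, none above 2.05 FPKM in any library. No gene passed an adjusted p of 0.05 in limma (0 of 19837, 0%), while an unadjusted p under 0.05 was reached by 3576 genes with higher and 1975 with lower values. The lowest adjusted limma p of a member was 0.152, and members are therefore described by whether both libraries of a group lay beyond both of the other, called apart here.

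Of the 54 tested members, 29 were apart and higher with Cus-1, where 36.6% of all tested genes were, and 15 were apart and lower, where 31.7% of all genes were. The other 10 overlapped, while 68.4% of all genes were apart in either direction. At an unadjusted p under 0.05, 19 members were higher (18% of all genes) and 7 lower (9.96% of all genes). The median log2 fold change of the members was 0.39, against 0.04 for all tested genes. Among all genes at that unadjusted p, 64.4% were higher as deposited, 51.2% after quantile normalization, and 99.5% when each library was centred on its Sertoli markers. Without busulfan 1 the members at that p were 5 higher and 1 lower, without Cus-1 1 they were 11 and 3, and without busulfan 2 or Cus-1 2 the higher ones were 19 and 16, so the count rested most on busulfan 1.

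Markers of the testis cell types were set beside these members. All 10 spermatocyte, all 10 round spermatid and all 10 elongating spermatid markers were apart and higher, with median log2 fold changes of 0.98, 1.03 and 1.19. Summed spermatocyte markers held 1443 and 2160 FPKM in the busulfan libraries and 3435 and 3109 in the Cus-1 libraries, and summed elongating spermatid markers 3257 and 3397 against 12318 and 4442. All 10 Sertoli markers were apart and lower (median -0.77), with sums of 4884 and 3402 against 2256 and 2775. Medians were -0.49 for Leydig cells (5 of 8 apart and lower), -0.63 for macrophages (6 of 8), -0.43 for endothelium (5 of 6), -0.28 for peritubular myoid cells (1 of 6), -0.28 for blood (2 of 5) and 0.06 for spermatogonia (3 of 9 apart and higher, 3 apart and lower). Few lymphocyte (2 of 5), epididymis (1 of 6) and nerve markers (2 of 7, one of them Tubb3) passed the filter. Of these, 1 lymphocyte and both nerve markers were apart and lower, and Cd79a, Ms4a1, Crisp1, Adam7 and Nefl were listed at 0 in a library. No defining marker of a germ-cell stage, Sertoli cells or Leydig cells was at 0, so the labelled tissue carried its own markers. In whole tissue, fewer cells of a type and less RNA per cell cannot be told apart.

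**Figure D1:**
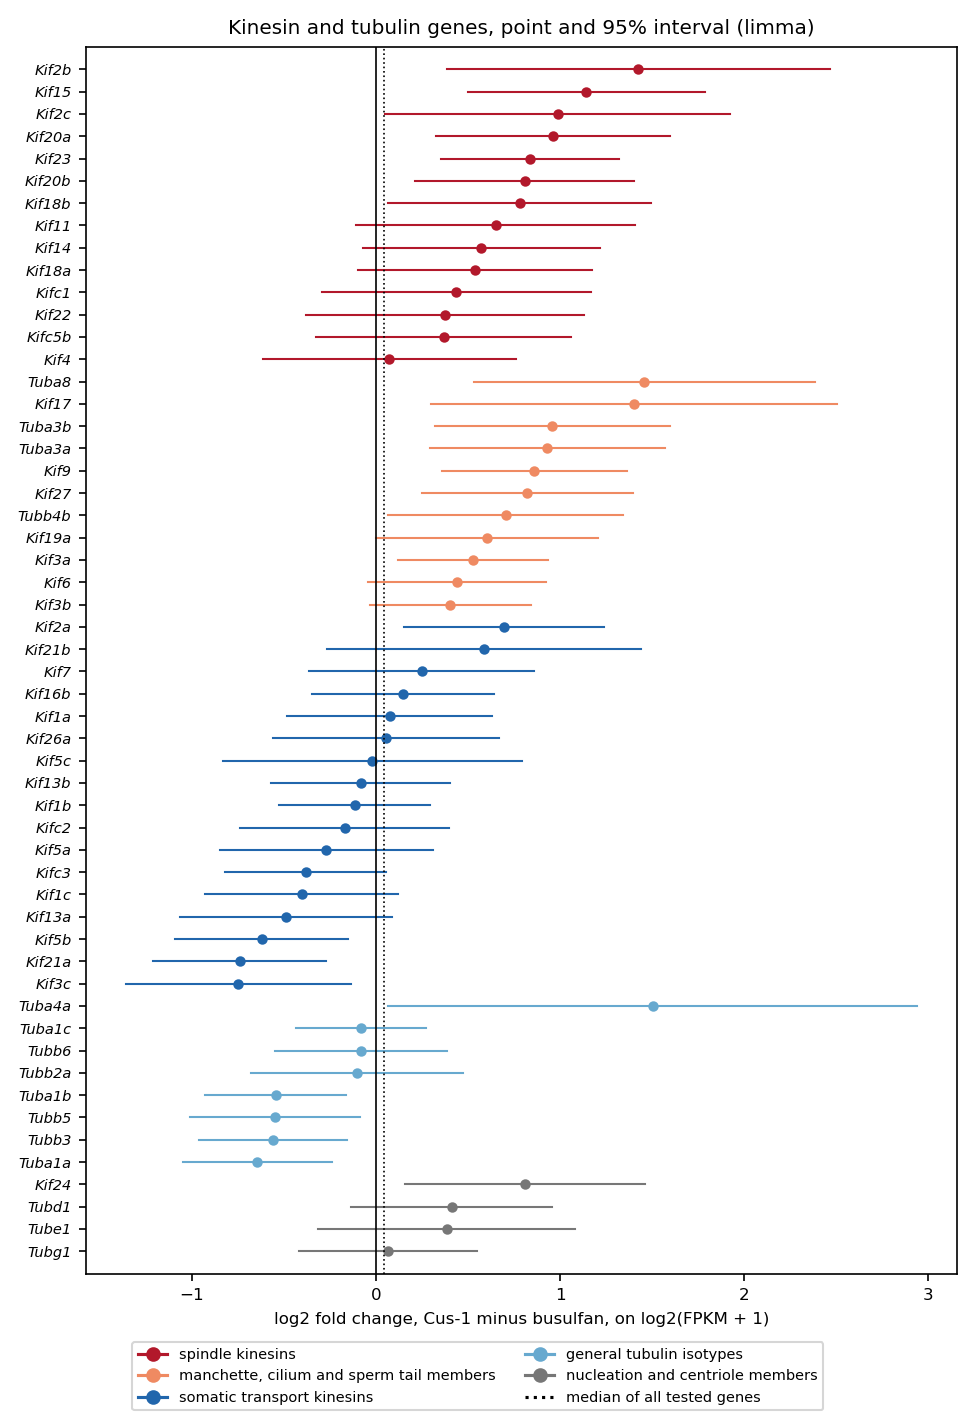
The plot gives the log2 fold change (Cus-1 minus busulfan, on log2(FPKM + 1), horizontal axis) of each of the 54 tested members by role, as a point with its 95% interval from limma, and the dotted line is the median of all tested genes at 0.04. All 11 manchette, cilium and tail members and all 14 spindle kinesins lie right of 0 (Kif4 left of it after quantile normalization), while 11 of 17 somatic transport kinesins and 7 of 8 general tubulins lie left of 0, a side that changed for those 18 when libraries were centred on Sertoli markers.

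Spindle kinesins build, focus and take apart the spindle and complete cell division. Of the 14, all tested, 11 were apart and higher and none apart and lower, 7 had an unadjusted p under 0.05, and the median log2 fold change was 0.72 (range 0.07 to 1.43), or 0.44 without busulfan 1. Kif15 (chromosome 9, 122951046-123018733), a motor that holds spindle poles apart, had 5.81 and 9.13 FPKM in the busulfan libraries and 18.07 and 16.67 in the Cus-1 libraries. Its lowest Cus-1 value was well above its highest busulfan value, with a log2 fold change of 1.14 ± 0.25 (SE; n = 2 per group) and an adjusted limma p of 0.152. Kif23, a centralspindlin subunit needed for cytokinesis, had 12.99 and 16.88 against 27.73 and 26.83 FPKM (0.84 ± 0.19). Kif20a, which brings the chromosomal passenger complex to the midzone, had 16.56 and 25.24 against 44.87 and 37.20 FPKM (0.96 ± 0.25). In each of these 3 the Cus-1 libraries lay close together and the busulfan libraries farther apart.

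In the depolymerases Kif2b and Kif2c the Cus-1 libraries were the wider pair. Kif2b had 16.40 and 23.27 FPKM in the busulfan libraries and 79.69 and 36.77 in the Cus-1 libraries, a log2 fold change of 1.43 ± 0.40. Kif2c, which corrects faulty kinetochore attachments, had 24.35 and 32.10 against 80.05 and 39.69 FPKM (0.99 ± 0.36, adjusted limma p 0.171). For both genes the first Cus-1 library stood far above the other, with ratios of 2.17 and 2.02, and without it the log2 fold changes were 0.88 and 0.49.

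Among the remaining spindle kinesins, Kif20b (0.81 ± 0.23) and Kif18b (0.78 ± 0.28) were apart and higher, as were Kif11, the motor that separates spindle poles (3.22 and 5.84 against 7.66 and 7.21 FPKM, 0.65 ± 0.29), Kif14, Kif18a and Kifc5b. Without busulfan 1, the log2 fold changes of Kif18b, Kif11 and Kif18a were 0.47, 0.30 and 0.29. Kif22 and Kif4, which move chromosome arms, and Kifc1, a minus-end motor that focuses spindle poles, overlapped between the groups. Kif4 stood at 1.78 and 2.85 FPKM against 2.51 and 2.37, a log2 fold change of 0.07 ± 0.27 whose sign turned after quantile normalization and without busulfan 1 (-0.16). The coding sequences of Kifc1 and Kifc5b are 98.4% identical, so how their fragments were split is uncertain.

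The manchette, cilium and sperm tail members were the group without an exception: all 11 tested members were apart and higher, 9 of them at an unadjusted p under 0.05, with a median log2 fold change of 0.82 (range 0.40 to 1.46). Their direction was the same under each scaling run and with each library left out. Tuba3a (chromosome 6, 125278274-125286042) and Tuba3b (chromosome 6, 145615757-145621479), alpha-tubulins abundant in testis, were the most abundant members of all. Tuba3a had 353.32 and 508.77 FPKM in the busulfan libraries and 886.89 and 739.06 in the Cus-1 libraries. Tuba3b had 359.47 and 512.72 against 921.31 and 757.96 FPKM. Both groups were well separated, and the log2 fold changes were 0.93 ± 0.25 and 0.96 ± 0.25, each with an adjusted limma p of 0.152. Their coding sequences are 97% identical, with 155 bases in the longest shared run, and their ratio stayed between 1.01 and 1.04 in all libraries, so the pair is best read as a sum.

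Tubb4b (chromosome 2, 25222160-25224702), the beta-tubulin of ciliary axonemes, had 309.33 and 425.33 FPKM against 676.97 and 516.91 (0.70 ± 0.25, adjusted limma p 0.165). Fam166a shares exon bases with it on the opposite strand. Kif9, a motor of the central pair of the axoneme, had 44.37 and 57.62 against 101.28 and 84.84 FPKM (0.86 ± 0.20), and Kif27, also linked to motile cilia, had 24.48 and 36.00 against 55.70 and 50.98 (0.82 ± 0.22). Kif3a and Kif3b, which form the motor of intraflagellar transport, differed less, with log2 fold changes of 0.53 ± 0.16 and 0.40 ± 0.17. Kif6 (0.44 ± 0.19) and Kif19a, which trims microtubules at ciliary tips (0.61 ± 0.23), were likewise higher in both Cus-1 libraries.

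The highest fold changes of this group were those of 2 scarcer genes that also differed most between the Cus-1 libraries. Kif17, a kinesin that in testis is known to carry the CREM coactivator ACT, had 6.32 and 8.01 FPKM against 31.66 and 13.09 (1.40 ± 0.43). Tuba8, a divergent alpha-tubulin, had 6.15 and 6.82 against 28.02 and 13.55 (1.46 ± 0.36). In both, the busulfan libraries were alike and the first Cus-1 library was far above the rest. Without that library the log2 fold changes were 0.80 and 0.96.

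**Figure D2:**
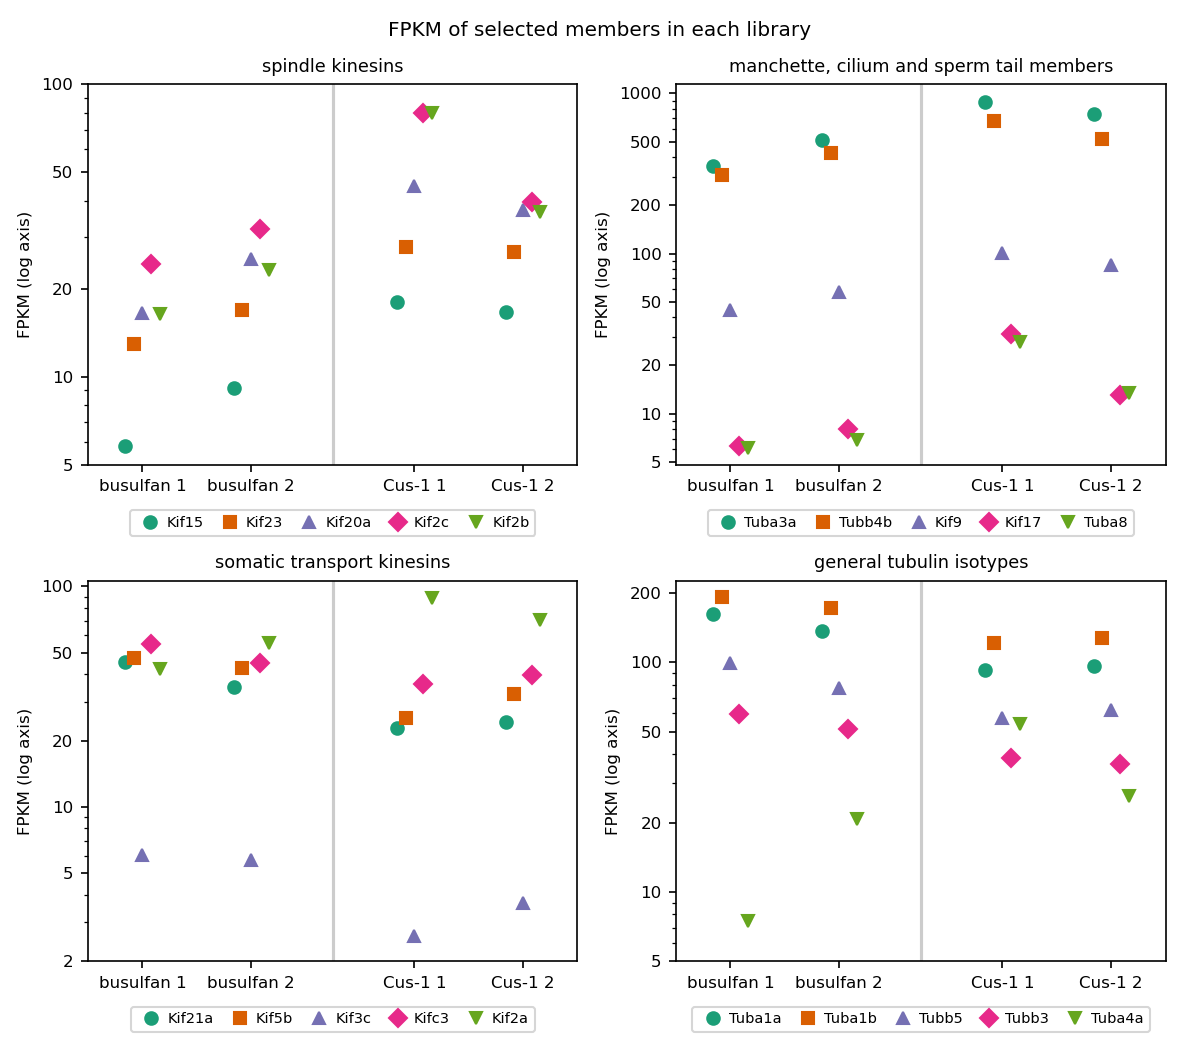
Each point is the FPKM (log axis) of a member in one library, with the busulfan libraries left of the grey line and the Cus-1 libraries right of it. Tuba3a lies between 353 and 509 FPKM in the busulfan libraries and at 739 and 887 in the Cus-1 libraries, whereas Tuba1a goes from 137 and 162 to 93.0 and 96.7, and the points of Kif2b, Kif2c, Kif17, Tuba8 and Tuba4a are highest in Cus-1 1. The lower Cus-1 side of the general tubulins and of Kif21a, Kif5b, Kif3c and Kifc3 holds for FPKM as deposited and turned under centring on Sertoli markers.

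The somatic transport kinesins, most of which carry organelles and vesicles, were mixed. Some members of this group are not carriers, among them Kif2a and Kif7, which were both apart and higher. Of 17 tested members 9 were apart and lower, 3 apart and higher and 5 overlapped, and the median log2 fold change was -0.12 (range -0.75 to 0.70), which was 0.67 when libraries were centred on Sertoli markers. Kif21a (chromosome 15, 90933276-91049948), which slows microtubule growth at the cell cortex, had 45.26 and 35.17 FPKM in the busulfan libraries and 22.78 and 24.20 in the Cus-1 libraries. The groups did not overlap, and its mean was 1.71 times as high with busulfan alone (log2 fold change -0.74 ± 0.18, adjusted limma p 0.152). Kif5b, the widely used heavy chain of conventional kinesin, had 47.21 and 42.48 against 25.45 and 32.48 FPKM (-0.62 ± 0.18). Kif3c, a partner of Kif3a outside cilia, had 6.07 and 5.73 against 2.60 and 3.68 FPKM (-0.75 ± 0.24).

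Kifc3, a minus-end motor found at adherens junctions, had 54.98 and 44.83 against 36.15 and 39.70 FPKM (-0.38 ± 0.17, or -0.24 without busulfan 1). Kif13a (-0.49 ± 0.22), Kif1c (-0.40 ± 0.20, or -0.19 without Cus-1 1), Kif5a, Kifc2 and Kif1b were also apart and lower. Under centring on Sertoli markers the sign of all 9 turned, with values from 0.04 for Kif3c and Kif21a to 0.67 for Kif1b, below the 0.83 of the median gene in that fit. Kif2a, a depolymerase of many cell types, was the exception that stood well above: 42.08 and 55.27 against 88.69 and 70.07 FPKM (0.70 ± 0.21). Kif7 and Kif21b were the other two that were apart and higher, both at low levels.

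The general tubulins, which build the microtubules of most cells, were lower with Cus-1 for 6 of 8 tested isotypes on the deposited scale, with a median log2 fold change of -0.32 that turned to 0.46 under centring on Sertoli markers. Tuba1a (chromosome 15, 98949837-98953703) had 161.83 and 136.82 FPKM in the busulfan libraries and 93.03 and 96.72 in the Cus-1 libraries (-0.64 ± 0.16). Tuba1b had 192.22 and 172.13 against 120.89 and 128.17 FPKM (-0.54 ± 0.15), each with an adjusted limma p of 0.152. Tubb5, a beta-tubulin of most cell types, had 98.99 and 77.22 against 57.08 and 61.99 FPKM (-0.55 ± 0.18). In all 3 the Cus-1 values lay close together and below every busulfan value. Tuba1a and Tuba1b are 98.3% identical over their coding sequence, and Tuba1b and Tuba1c 98.4%, so the split among these isotypes is uncertain. Gm49450 shares exon bases with Tuba1a and Tuba1b on the same strand. It had 59.05 and 46.70 against 36.86 and 19.19 FPKM (-0.95 ± 0.34), and its part in their values was not tested.

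Tubb3, known from neurons and also made by Sertoli cells, had 59.76 and 51.24 against 38.28 and 36.20 FPKM (-0.56 ± 0.16). The nerve markers Snap25, Stmn2, Nefl and Nefm were all below the filter. Tuba1c and Tubb6 were apart and lower by little, with log2 fold changes of -0.08 each, and Tubb2a overlapped (-0.10 ± 0.22). Tuba4a was the exception, with 7.46 and 20.91 FPKM against 53.69 and 26.26 (1.504 ± 0.56, adjusted limma p 0.171), or 0.82 without busulfan 1 and 1.002 without Cus-1 1. It varied most within a group of all members compared: busulfan 2 stood 2.80 times above busulfan 1, and Cus-1 1 2.05 times above Cus-1 2. Stk16 overlaps its exons on the opposite strand, with 64.31 and 85.96 against 77.87 and 84.53 FPKM.

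Relative to the median of all genes, which a common scaling does not move, the general tubulins stood at -0.37 as deposited and under centring on Sertoli markers, and at -0.37 after quantile normalization. The somatic transport kinesins stood at -0.16, -0.16 and -0.09, the spindle kinesins at 0.67, 0.67 and 0.70, and the manchette, cilium and tail members at 0.78, 0.78 and 0.79. The median gene itself lay at 0.04 as deposited, at 0.83 under centring on Sertoli markers and at -0.06 after quantile normalization. Centring adds the same amount to every gene and so cannot change the order of the roles, and the tail members were not above the spindle kinesins with a pseudocount of 0.1, with a filter of 5 FPKM, or with Kifc1 and Kifc5b counted as tail members. Spindle members lay 0.83 and tail members 0.94 above the somatic members (transport kinesins and general tubulins together). Sertoli markers were lower in both Cus-1 libraries beside these lower members, and germ-cell markers were higher beside the spindle and tail members. Their part in these differences was not tested.

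Shares within a gene family are not moved by a common factor per library, and no other scaling was run for them. Tuba3a and Tuba3b made up 63.0% and 72.6% of summed alpha-tubulin FPKM in the busulfan libraries and 84.1% and 82.8% in the Cus-1 libraries. The share of Tuba1a and Tuba1b was 31.3% and 22.0% against 9.95% and 12.4%. Tubb4b made up 64.0% and 74.9% of beta-tubulin FPKM against 86.1% and 82.3%, and Tubb5 20.5% and 13.6% against 7.26% and 9.87%. None of these shares overlapped between the groups. With 2 libraries against 2, the exact two-sided permutation test gave p = 0.333 for each, the smallest value it can give.

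Tubb4b was thus 3.12 and 5.51 times as abundant as Tubb5 in the busulfan libraries and 11.9 and 8.34 times in the Cus-1 libraries. Summed alpha- over summed beta-tubulin FPKM was 2.34 and 2.48 against 2.73 and 2.88, higher in both Cus-1 libraries. Alpha-tubulins held 0.157% and 0.191% of all summed FPKM with busulfan alone and 0.298% and 0.246% with Cus-1, beta-tubulins 0.0670% and 0.0770% against 0.109% and 0.0856%, and kinesins 0.0760% and 0.0845% against 0.124% and 0.0999%. For each of these shares both Cus-1 libraries were higher (exact permutation p = 0.333). Spindle kinesins went from 20.2% and 26.0% of kinesin FPKM to 36.2% and 30.4%, and transport kinesins from 52.4% and 44.0% to 29.1% and 34.5%.

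**Figure D3:**
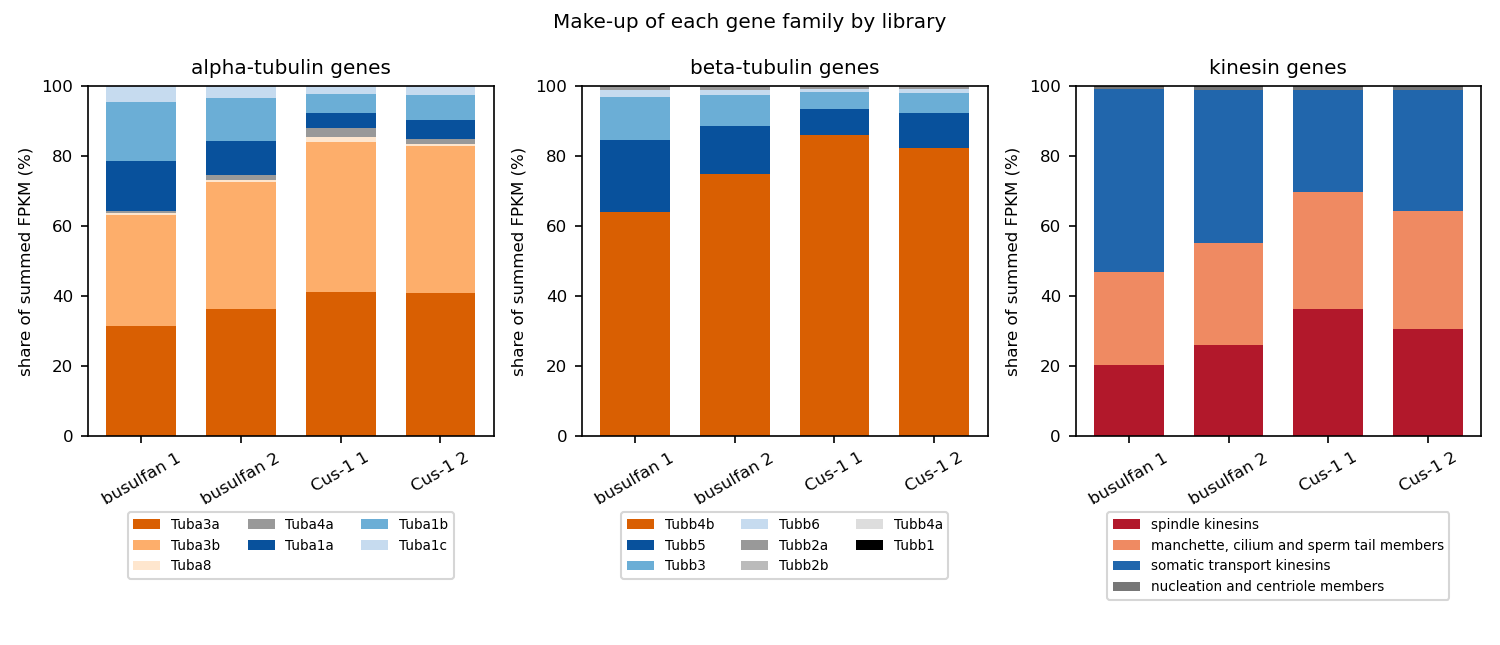
Stacked bars give each gene's percent of the summed FPKM of alpha-tubulins (left) and beta-tubulins (middle), and each role's percent of kinesin FPKM (right), in each library. Tuba3a with Tuba3b takes 63.0% and 72.6% of the busulfan bars and 84.1% and 82.8% of the Cus-1 bars, and somatic transport kinesins shrink from 52.4% and 44.0% to 29.1% and 34.5%.

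Kinesins are also grouped into families by their motor domain. Shares within a family add up to a fixed total, so a rise of some forces a fall of others. Kif2a fell from a mean of 47.8% to 39.6% of kinesin-13 FPKM, although its own FPKM was apart and higher. As deposited, FPKM of Kif27 and Kif17 were apart and higher. Those of Kif21a and Kif3c were apart and lower, a direction that turned under centring on Sertoli markers. In the kinesin-4 family Kif21a made up 60.7% and 45.1% of FPKM in the busulfan libraries and 25.9% and 29.6% in the Cus-1 libraries, and Kif27 32.8% and 46.2% against 63.2% and 62.3%. In the kinesin-2 family Kif3c held 8.49% and 7.01% against 2.05% and 3.66%, and Kif17 8.84% and 9.80% against 25.0% and 13.0%. Kif3a was 4.15 and 5.18 times as abundant as Kif3c with busulfan alone and 15.3 and 10.9 times with Cus-1. The depolymerases of the kinesin-13 family, Kif2a, Kif2b, Kif2c and Kif24, were all 4 apart and higher, each at an unadjusted p under 0.05. The 3 members of kinesin-6, Kif20a, Kif20b and Kif23, were too, with shares of their family that overlapped between the groups.

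The order of the kinesins by mean FPKM differed between the groups. Kif9 had the highest mean in both, at 51.0 ± 9.37 (SD, n = 2) with busulfan alone and 93.1 ± 11.6 with Cus-1. With busulfan alone Kifc3, Kif2a, Kif5b and Kif21a followed with means between 40.2 and 49.9, which did not differ from Kif9 or from each other beyond their spread, and in busulfan 1 Kifc3, Kif5b and Kif21a were above Kif9. With Cus-1 Kif2a, Kif2c, Kif2b and Kif27 followed, and Kifc3 stood at place 9, Kif5b at 10 and Kif21a at 12. Kif2b went from place 12 to 4, with a Cus-1 mean of 58.2 ± 30.3 whose spread covers the means from Kif2a at place 2 to Kif5b at place 10. In Cus-1 2, Kif2b at 36.77 FPKM lay below Kif3b (43.75), Kif3a (40.05) and Kifc3 (39.70).

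Nucleation and centriole members were scarce. Kif24, a depolymerase of the mother centriole, had 4.11 and 6.31 FPKM against 10.38 and 9.09 (0.81 ± 0.25, adjusted limma p 0.154). Tubd1, delta-tubulin of the centriole triplet, had 13.21 and 18.43 against 21.99 and 20.24 (0.41 ± 0.21), and Tube1, epsilon-tubulin, 2.19 and 3.17 against 3.20 and 4.39 (0.38 ± 0.27). All 3 were apart and higher, Tube1 by a margin in the second decimal. Without busulfan 1, Tubd1 and Tube1 both stood at 0.19, and without Cus-1 2 Tube1 stood at 0.20. Tubg1, the gamma-tubulin that starts new microtubules, overlapped at 13.30 and 14.04 against 16.05 and 12.86 (0.07 ± 0.19).

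The libraries of a group also differed from each other, in different members for each group. Over the 53 members at 1 FPKM or more in every library, Cus-1 1 over Cus-1 2 had a median of 1.09 and exceeded 1.5 in 7 members: Kif17 (2.42), Kif2b, Tuba8, Tuba4a, Kif2c, Kif21b and Kif5c. Elongating spermatid markers had a median ratio of 2.71 between the same libraries, round spermatid markers 1.73 and spermatocyte markers 1.11. Busulfan 2 over busulfan 1 exceeded 1.5 in 10 members, namely Tuba4a, Kif24 and the spindle kinesins Kif11, Kif15, Kif18a, Kif18b, Kif20a, Kif22, Kif4 and Kifc1. The median of the spindle kinesins was 1.52 there, that of spermatocyte markers 1.49 and that of Sertoli markers 0.75. Among the listed members, Kif5c, Kif21b, Tuba4a and Kif24 belong to neither the spindle nor the tail role. Germ-cell markers differed between the same libraries, and the part of cell makeup was not tested.

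**Figure D4:**
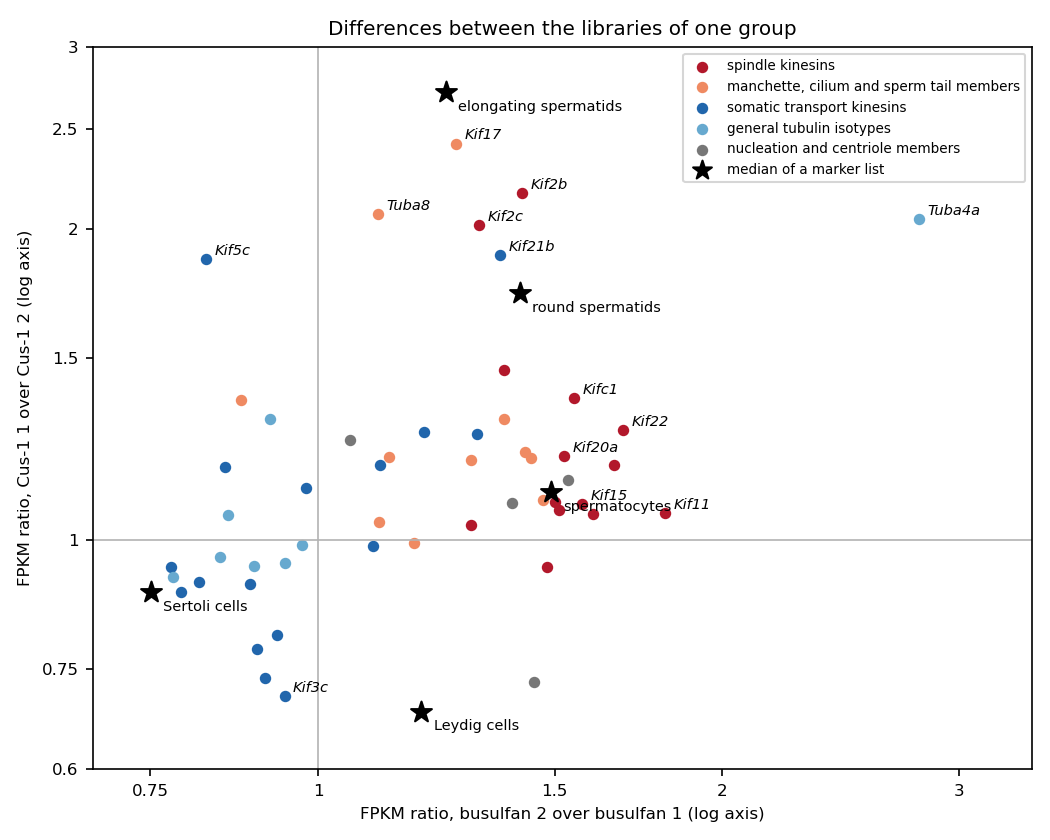
Each point is a member, placed by its FPKM ratio of busulfan 2 over busulfan 1 (horizontal, log axis) and of Cus-1 1 over Cus-1 2 (vertical, log axis), and stars are medians of marker lists. Kif17, Kif2b, Tuba8 and Kif2c lie above 2 on the vertical axis, where elongating spermatid markers lie at 2.71, and most spindle kinesins lie near the spermatocyte star at 1.49 on the horizontal axis.

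Other microtubule genes, listed by function, were set beside the members, again with 36.6% of all genes apart and higher, 31.7% apart and lower, and none past an adjusted limma p of 0.05. Of 25 tested spindle partners 22 were apart and higher and 1, Numa1, lower, with a median log2 fold change of 0.66. Among them Aurkc, the meiotic aurora kinase, had 4.20 and 5.83 FPKM against 15.22 and 11.65 (1.27 ± 0.25), Aurka 44.30 and 58.48 against 94.47 and 68.88 (0.65 ± 0.23), and Cdc20, the activator of the anaphase-promoting complex, 33.38 and 50.73 against 85.04 and 71.77 (0.91 ± 0.24). Of 20 manchette proteins 17 were apart and higher, 16 at an unadjusted p under 0.05, with a median of 0.82. Another 1, Hook3, was apart and lower (-0.35 ± 0.26), and 2, Ift20 and Clip1, overlapped. Meig1, which brings cargo to the manchette, had 710.39 and 1021.61 against 1764.53 and 1487.57 FPKM (0.93 ± 0.27), and Spata4 (0.98 ± 0.23) and Iqcg (0.88 ± 0.18) were alike. In Aurkc, Aurka, Cdc20, Meig1, Spata4 and Iqcg both Cus-1 libraries were above both busulfan libraries.

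Of 26 enzymes that modify tubulin tails 17 were apart and higher and 4 lower (median 0.67). Ttll1, a polyglutamylase, had 16.89 and 15.31 FPKM against 28.07 and 29.49 (0.80 ± 0.16), and Agbl5, a deglutamylase, 83.15 and 107.74 against 196.25 and 158.34 (0.89 ± 0.20). Svbp, the partner of the vasohibin detyrosinases, overlapped at 136.38 and 60.75 against 109.00 and 85.10 FPKM. Hdac6, a tubulin deacetylase, was lower at 104.84 and 77.15 against 51.31 and 56.42 (-0.73 ± 0.20), a direction that turned under centring on Sertoli markers.

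Tubulin folding factors were less uniform, with 10 of 17 apart and higher and 2 lower (median 0.24). Cct6b, the testis form of a chaperonin subunit, had 55.54 and 65.52 FPKM against 128.61 and 102.33 (0.92 ± 0.19), and Tcp1, another subunit, 367.95 and 531.17 against 852.64 and 741.21 (0.85 ± 0.24), while the cofactor Tbca overlapped (0.18 ± 0.17). Of 11 genes of the gamma-tubulin ring 6 were apart and higher and 3 lower (median 0.20), with Mzt2 at 0.72 ± 0.18 and Cdk5rap2 at 0.73 ± 0.17. Kinesin cargo partners split into 5 higher and 4 lower of 12 (median 0.01). Cenpe and Stard9 in this list are kinesins themselves, without a Kif symbol. Cenpe, a spindle motor, was among the higher at 6.98 and 10.57 against 15.83 and 13.85 FPKM (0.72 ± 0.25). Stard9 overlapped (0.01 ± 0.23). Klc3, a light chain known from the sperm tail, was higher at 2.58 and 1.83 against 5.14 and 3.86 FPKM, and Trak1, a mitochondrial adaptor, lower at 44.70 and 37.59 against 29.88 and 30.78, a direction that turned under centring on Sertoli markers. Klc2 overlapped (0.07 ± 0.14).

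Microtubule-associated and severing proteins showed 8 apart and higher and 9 apart and lower of 26, with a median of 0.02. Stmn1 (0.53 ± 0.18) and the severing enzyme Spast (0.68 ± 0.18) were apart and higher, and Map4 overlapped (-0.17 ± 0.17). The lists that serve spindles, manchette and tubulin tails thus had medians between 0.66 and 0.82, and the other lists had medians between 0.01 and 0.24. This difference was not tested.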

How the data were processed

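The authors deposited 1 table of FPKM values per gene and library, printed to 2 decimals. The submitters' processing notes name mm10 as the build. For aligner, counter, annotation, strand setting and gene lengths, values were not given in the sources used here. Of 45582 rows, 46 were blank and 910 had no name (0.641% to 0.688% of summed FPKM), and these were left out. The highest-mean row stood for each of 115 repeated symbols, none of them a member. Summed FPKM lay between 726041 and 742689 per library. The table gives no fragment totals and none were estimated here, so no counting interval is given.

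Genes at 1 FPKM or more in 2 libraries were tested on log2(FPKM + 1) with limma 3.58.1 in R 4.3.3 (mean-variance trend, two-sided, Benjamini-Hochberg over all tested genes, threshold 0.05), tested on simulated data first. No count test was made. A fold change on this scale understates the change of scarce genes. Shares and motifs were computed in Python 3.11.15 and Biopython 1.88. Gene positions are from GENCODE M21 for 61 members, and 21 tested members share exon bases with another gene, 18 on the opposite strand, where fragments cannot be told apart without the strand setting. The members, role groups, gene lists and markers were chosen with earlier results of these data known, so their directions are not independent evidence. Named genes were, per role, the 3 most abundant tested members and up to 4 with the smallest limma p, and per list of other genes the 2 most abundant and the 1 with the smallest p. Others were named to complete a count. No protein sequence was used here.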

Additional observations from a re-analysis of the deposited data

Results flagged for a closer look

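Kif4-ps, a transcribed processed pseudogene of Kif4 (chromosome 12, 101145614-101149758, plus strand), is no member, but its row gave a signal above every busulfan value in each Cus-1 library, and for that reason it is listed here. It had 3.99 and 4.45 FPKM in the busulfan libraries and 7.28 and 7.58 in the Cus-1 libraries. The log2 fold change was 0.69 ± 0.20 (SE, n = 2 per group) with an adjusted limma p of 0.152, while Kif4 itself was at 1.78 and 2.85 against 2.51 and 2.37 FPKM (0.07 ± 0.27). Fragments of the pseudogene and of Kif4 may have been split between the rows, which was not tested.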

How the results depend on the processing

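No member passed an adjusted limma p of 0.05 under another pseudocount (0.1 or 0.5), filter, sum scaling, quantile normalization, limma without trend or any left-out library. Centring on Sertoli markers was the exception: 5723 of 19837 genes (5699 higher, 24 lower) and 25 members passed, all higher. There 50 members were apart and higher and 0 apart and lower, 37 and 0 at an unadjusted p under 0.05. Role medians became 1.5002 for spindle, 1.61 for tail, 0.67 for somatic kinesins and for all somatic members, 0.46 for general tubulins and 1.18 for nucleation members. Of the 54 members 18 turned in sign, as did every other gene that lay below 0 by less than the added amount. Named genes among those that turned were Kifc3 (0.40), Kif5b (0.16), Kif21a (0.044), Kif3c (0.036), Tuba1b (0.24), Tuba1a (0.14), Tubb5 (0.24), Tubb3 (0.23), Trak1 (0.36) and Map4 (0.62). This follows from its construction, which adds the same amount to all genes of a library. Quantile normalization turned Klc2 (-0.034) and Svbp (-0.062) among the genes chosen by rule, and the members Kif4 and Kif26a.

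The tail-minus-spindle difference of medians (0.11) was not stable: -0.0059 with pseudocount 0.1, 0.063 with 0.5, 0.048 with no filter, -0.00090 with a filter of 5 FPKM, -0.090 with Kifc1 and Kifc5b counted as tail members and 0.19 with Kif2b counted there, a setting chosen after seeing the data. With no filter the general tubulin median was -0.10, as the 3 scarce isotypes entered. With a filter of 5 FPKM the somatic kinesin and somatic member medians were both -0.38, and spindle and tail lay 1.20 and 1.20 above them.

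Leaving out each library in turn, members at an unadjusted p under 0.05 numbered 5 to 19 higher and 1 to 5 lower. The spindle median was 0.44 (without busulfan 1) to 1.01, the nucleation median was 0.19 to 0.61, and the differences of medians were 0.59 to 1.17 (spindle minus somatic), 0.83 to 1.21 (tail minus somatic) and 0.039 to 0.234 (tail minus spindle). Where a group is left with 1 library, that library is assumed to vary like the other group. Tubg1 ran from -0.081 (without Cus-1 1) to 0.217, and Svbp from -0.497 (without busulfan 2) to 0.656, with -0.097 without Cus-1 1. The sign was kept under all alternatives for 32 of 54 members, and for 48 when centring on Sertoli markers is set aside. No paired analysis was possible because the labels give no shared replicate numbers. Summing repeated rows gave no value, since no member stands on more than 1 row.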
